A study of Mus musculus with 14 samples.

Results

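Motile cilia genes were followed across the brain hemispheres of wild-type (Cort+/+) and cortistatin-deficient (Cort-/-) mice. The genes were every row of the expression table whose symbol begins with Cfap, Dnah, Dnai, Rsph or Drc and goes on with a number, which gave 80 of the 46904 genes listed. The rule reads symbols and no expression value. The members are called motile cilia genes after these symbols. Whether each is particular to motile cilia or to ependymal cells was not tested, and Dnah2os is an antisense transcript. RNA-seq had been performed on contralateral hemispheres (CL, the uninjured side) and ischemic hemispheres (MCAO, the side of a 20 min occlusion of the middle cerebral artery) of 12-week-old male mice on a C57BL/6J background, 48 h after the occlusion. The 4 groups were Cort+/+ CL (3 libraries, numbered 1, 2 and 3), Cort+/+ MCAO (3 libraries, numbered 2, 3 and 4), Cort-/- CL (3 libraries, numbered 1 to 3) and Cort-/- MCAO (5 libraries, numbered 1 to 5). The labels give the CL libraries no treatment, while the study's methods describe them as contralateral hemispheres collected after MCAO. By the methods, which are followed here, the CL side is thus not a naive brain, and the sources do not say which libraries share a mouse. The methods also name more MCAO replicates than the Cort+/+ MCAO libraries analysed here, and say that only replicates that grouped clearly entered some comparisons. The Cort-/- line is a constitutive knockout, which lacks the gene in every tissue throughout life. Whole hemispheres hold many cell types, so fewer ciliated cells and less RNA per ciliated cell cannot be told apart.

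A motile cilium is driven by an axoneme, a ring of doublet microtubules around a central pair. Dynein motors of the outer and inner arms (Dnah heavy chains and Dnai intermediate chains) slide the doublets, while radial spokes (Rsph), the nexin-dynein regulatory complex (Drc) and the central apparatus time the motors, and many Cfap proteins line the doublets or help to assemble the parts. In the brain these cilia stand on ependymal cells, which line the ventricles and move cerebrospinal fluid. Foxj1 and the Rfx factors are the known transcription factors of the program, and Rfx factors bind a promoter element named the X-box.

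The promoters of the members were searched for the X-box and for a forkhead motif, sequence that the symbol rule did not use. In the RefSeq table of 300-base windows on mouse build GRCm38.p6 (250 bases before to 50 after the gene start), 53 of the 80 members were found. The X-box core GTTGCC, read on both strands, was in 19 of those 53 windows (35.8%) and in 14.1% of the windows of all 27025 genes. The whole X-box (GTTGCC, then NN, then GGNAAC) was in 2 of 53 (3.77%) against 0.355% of all, and the forkhead core GTAAACA in 3 of 53 (5.66%) against 4.05% of all. A whole X-box holds the core, so these counts overlap. The stretches shown are the 3 of the most coordinated members (described further on) with a core in their window, Drc1, which keeps a steadier level, and the pair with a whole X-box. Each is given 5′ to 3′ on the strand of its gene, with the match in capitals (GGCAAC is the core on the other strand).
Dnah10, inner arm heavy chain (chr5:124725041-124725084): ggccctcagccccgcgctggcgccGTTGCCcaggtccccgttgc
Cfap44, inner arm tether (chr16:44394756-44394798): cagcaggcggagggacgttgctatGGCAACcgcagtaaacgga
Cfap46, central apparatus (chr7:139683816-139683848): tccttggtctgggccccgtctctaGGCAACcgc
Drc1, nexin-dynein regulatory complex (chr5:30281358-30281392): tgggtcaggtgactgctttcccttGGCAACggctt
Cfap298, dynein assembly (chr16:90935000-90935061): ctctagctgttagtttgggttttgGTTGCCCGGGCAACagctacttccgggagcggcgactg
Cfap20dc, no assigned role (chr14:8666355-8666416): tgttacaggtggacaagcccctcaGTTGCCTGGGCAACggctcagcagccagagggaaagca
A match is a run of letters in the window and not a tested binding site.

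The libraries held 25989679 to 43032304 reads on genes, as recovered from the deposited values. Cort itself (chromosome 4, 149209491 to 149211266, GRCm39) followed the labels, with 2.61 to 5.68 RPKM (reads per length of transcript, corrected for the depth of the library) in the 6 Cort+/+ libraries and 0 to 0.136 RPKM in the 8 Cort-/- libraries. The presence of ependymal cells was checked by their markers. Foxj1, Ccdc153 and Tmem212, markers of ciliated ependymal cells, were read in every library, at 4.03 to 6.16, 1.56 to 3.48 and 1.24 to 2.48 RPKM. Ttr, the main product of the choroid plexus, which lies in the same ventricles, stood at 286 to 483 RPKM.

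Most members were low. The median member had a mean of 0.975 RPKM, 39 of 80 reached 1 RPKM and 5 reached 10 RPKM. The highest was Cfap36 at 43.1 RPKM, followed by Cfap418, Cfap298, Cfap410 and Cfap20 at 15.2, 14.3, 14.1 and 11.5 RPKM. Even so, 62 members had at least 30 reads in every library. One member, Cfap97d1, had 1 read in 1 library and was not tested, which left 79, and 75 had a mean of at least 0.1 RPKM. Under that level were Rsph6a, Dnah8, Dnah17, Cfap107 and Cfap97d1, with means of 0.0808, 0.0441, 0.0282, 0.0221 and 0.00206 RPKM. Dnah8, Dnah17 and Rsph6a are known for their part in the sperm tail.

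Of the 80 members, 66 were assigned to 7 parts of the axoneme and 14 were left without a class. The 7 outer arm members had means from 0.0282 to 1.55 RPKM, led by Dnai1 and Dnai2 (intermediate chains) and Dnah9 (a heavy chain). The 12 inner arm members ran from 0.104 to 2.67 RPKM, led by Dnai4. The 12 radial spoke members reached 9.76 RPKM with Rsph9, a spoke head protein. Of the nexin-dynein complex, Drc1, Drc3 and Drc7 had 5.72, 2.79 and 1.68 RPKM. The 9 central apparatus members ran from 0.174 to 3.61 RPKM with Cfap69 on top, the 15 doublet inner proteins from 0.0221 to 11.5 RPKM with Cfap20 on top, and the 8 tether, ruler and assembly factors from 0.137 to 14.3 RPKM with Cfap298 on top. The classes thus did not sort by level, and each held members more than 3 times as abundant as others.

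**Figure D1:**
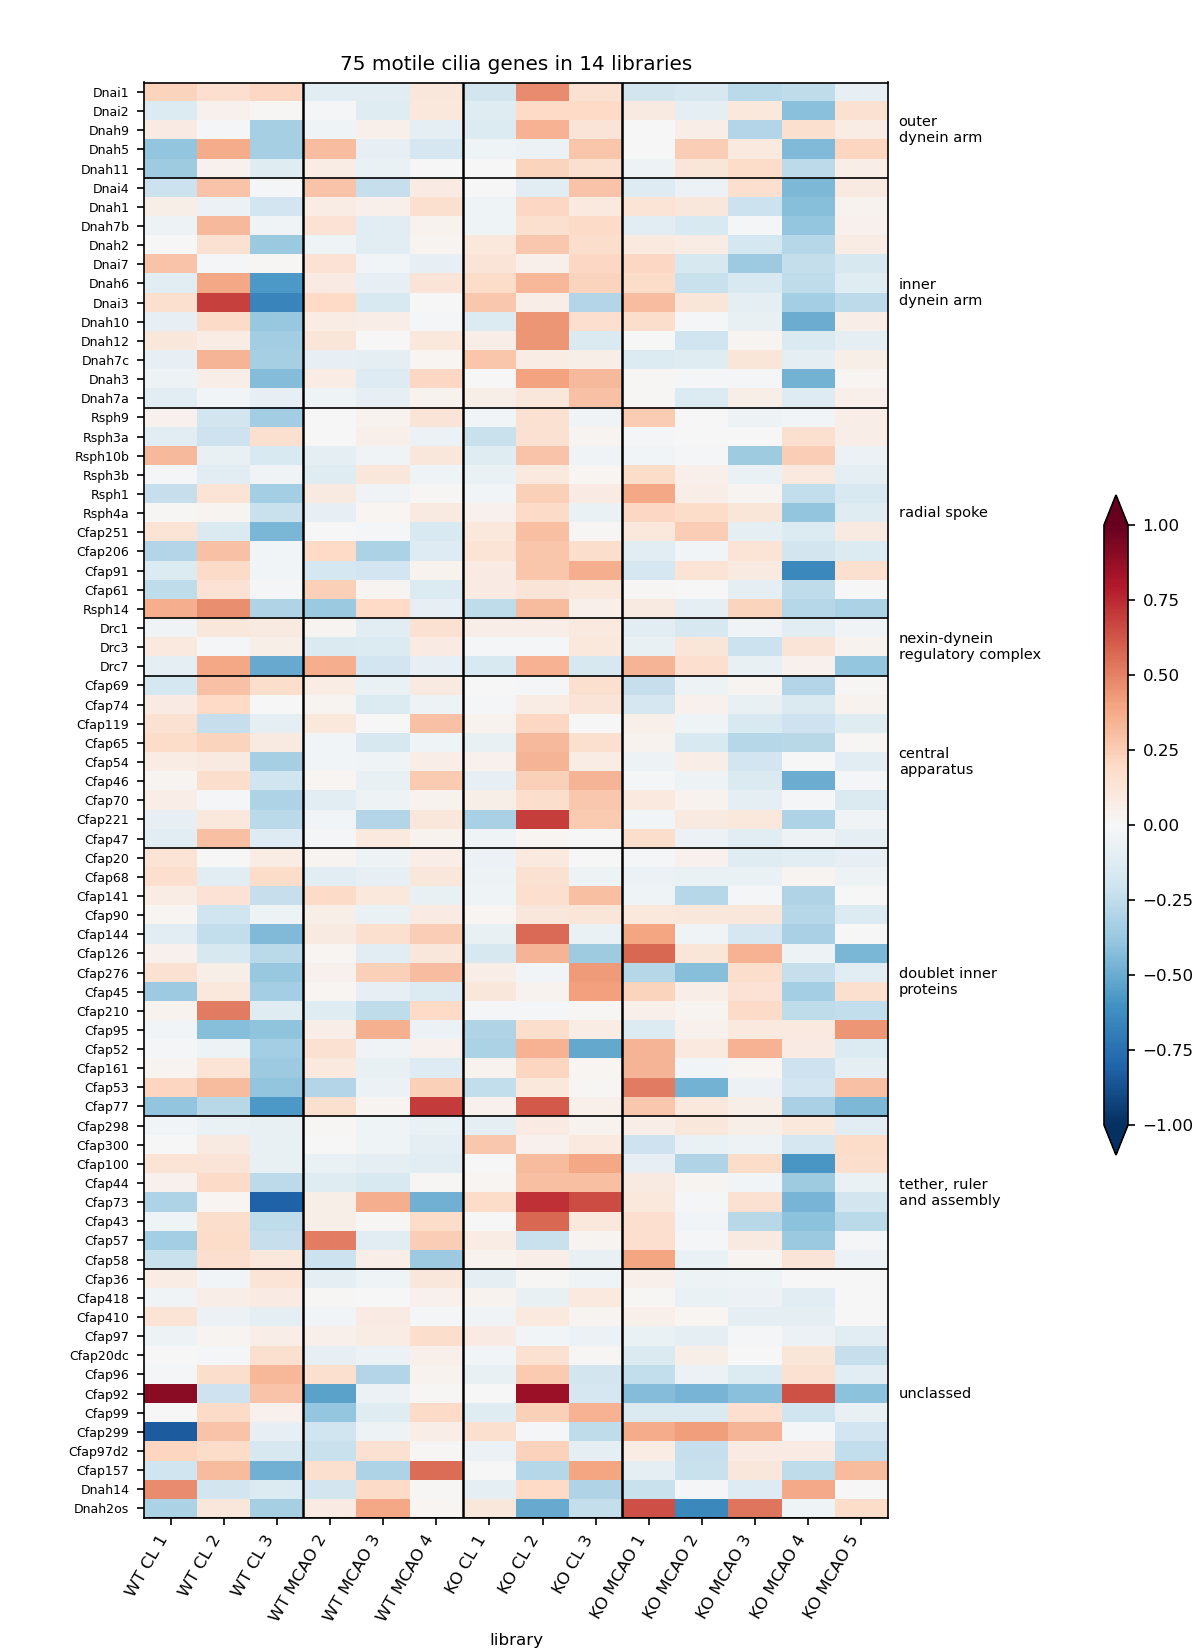
Each row is 1 of the 75 motile cilia genes that averaged 0.1 RPKM or more, grouped by part of the axoneme, and each column is 1 of 14 libraries (WT is Cort+/+, KO is Cort-/-). Colour gives log2(RPKM + 0.1) minus the gene's mean over the 14 libraries, and the column of Cort-/- CL library 2 is mostly red while Cort+/+ CL library 3 and Cort-/- MCAO library 4 are mostly blue.

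The level of the members was summarised per library as the mean, over those 75 genes, of each gene's log2(RPKM + 0.1) minus its own mean over the 14 libraries. On this log2 scale the Cort+/+ CL libraries had -0.01, 0.09 and -0.17, and the Cort+/+ MCAO libraries 0.01, -0.03 and 0.05. The Cort-/- CL libraries had -0.01, 0.19 and 0.08, and the Cort-/- MCAO libraries 0.06, -0.03, -0.01, -0.16 and -0.04. The highest library was thus Cort-/- CL 2, and the lowest were Cort+/+ CL 3 and Cort-/- MCAO 4, one from each genotype and one from each hemisphere. Group means were -0.03 ± 0.13 (SD, n = 3), 0.01 ± 0.04 (SD, n = 3), 0.09 ± 0.10 (SD, n = 3) and -0.04 ± 0.08 (SD, n = 5) in the same order. All 4 groups overlapped, and the pooled spread inside groups was 0.09 (SD). From the lowest to the highest library the level differed 1.28-fold.

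**Figure D2:**
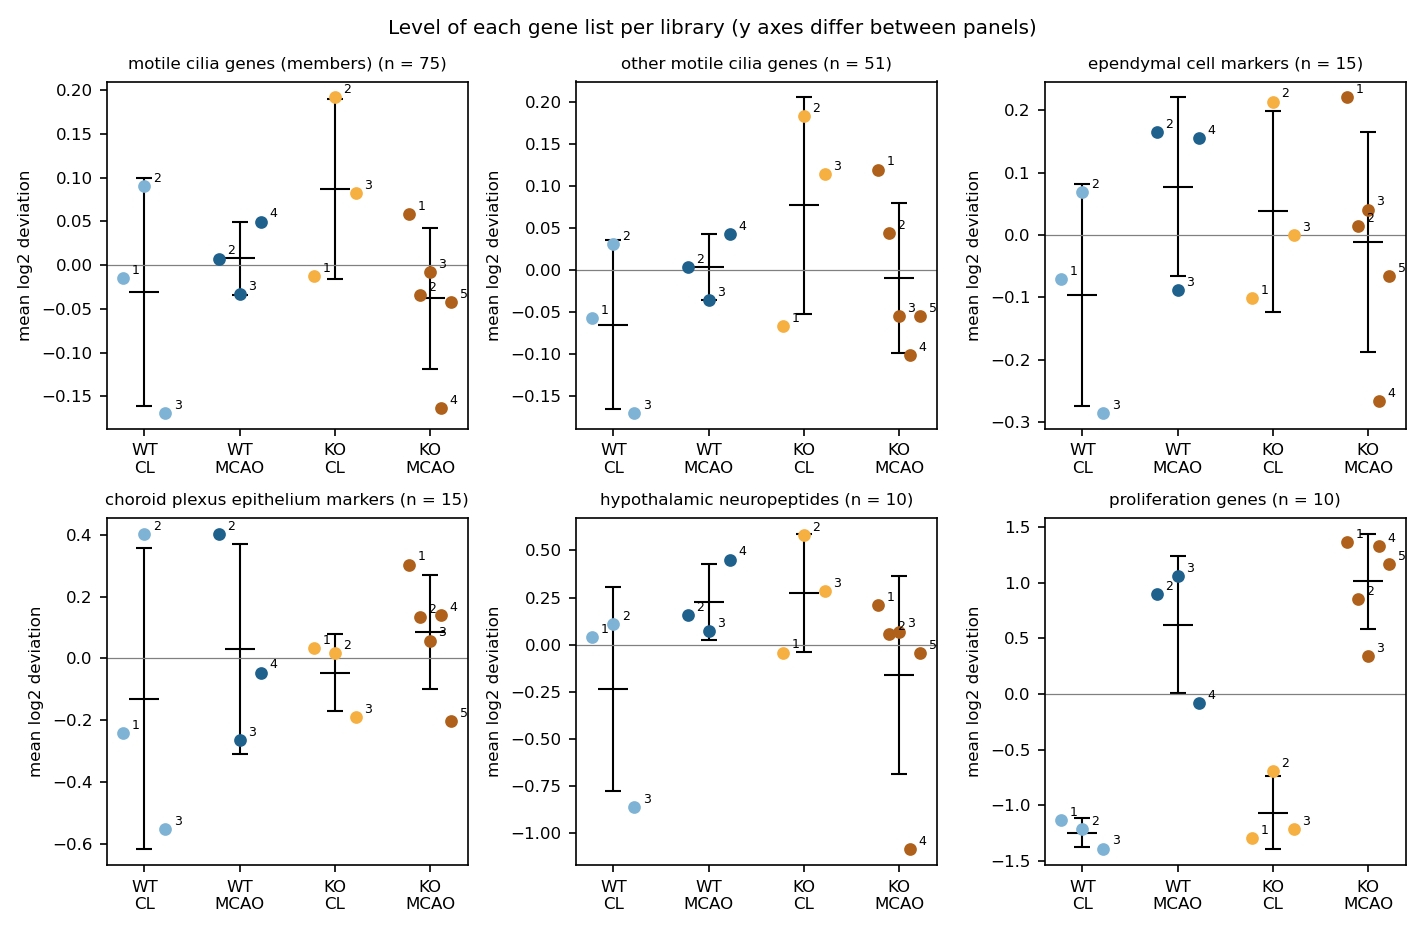
Level of 6 gene lists in each library, as the mean log2 deviation of the genes from their own means over 14 libraries, with the library number beside each point. Black bars are group means with SD (n = 3, 3, 3 and 5), and the y axes differ between panels. The members, the other motile cilia genes, the ependymal markers and the hypothalamic peptides share their lowest libraries (Cort+/+ CL 3 and Cort-/- MCAO 4), whereas proliferation genes separate the hemispheres.

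Many of the members moved together from library to library, within groups as well as over all libraries. The same agreement was not computed for other sets of genes, so whether it is particular to the members was not tested. For each of the 75 genes the Pearson r with the mean of the other 74 was taken over the 14 libraries, which differ in depth and some of which may share a mouse, and is given here as a description. The median r was 0.49, and 36 genes had an r of at least 0.5, 22 between 0.2 and 0.5 and 17 under 0.2. After the group means were removed the median r was 0.47 and 37 genes were at or above 0.5. Without Cort+/+ CL 3 and Cort-/- MCAO 4, the 2 lowest libraries, the median r was 0.36 and 24 genes were at or above 0.5.

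The 8 highest values were in inner arm, tether and central apparatus genes. Dnah3, Dnah10, Dnah6 and Dnah2, heavy chains of the inner arms, had an r of 0.93, 0.92, 0.88 and 0.86. Cfap44 and Cfap43, which tether an inner arm to the doublet, had 0.91 and 0.89, and Cfap46 and Cfap221 of the central apparatus 0.84 and 0.81. Of the inner arm members, 10 of 12 were at or above 0.5, against 2 of 5 outer arm, 6 of 11 radial spoke, 1 of 3 nexin-dynein complex, 6 of 9 central apparatus, 7 of 14 doublet inner proteins and 4 of 8 tether, ruler and assembly genes. Dnah14, a heavy chain without a class, had -0.26. The mean of each class also followed that of the members outside it, with r from 0.59 for the 3 genes of the nexin-dynein complex to 0.90 for the radial spoke. The 13 measured members without a class had an r of 0.20 with the rest, and none of them reached 0.5 as a single gene.

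Dnah10 shows the pattern in single values. It had 0.251, 0.323 and 0.185 RPKM in Cort+/+ CL, 0.291, 0.290 and 0.269 in Cort+/+ MCAO, 0.238, 0.405 and 0.317 in Cort-/- CL, and 0.319, 0.269, 0.253, 0.164 and 0.288 in Cort-/- MCAO. The extremes are again Cort-/- CL 2 and Cort-/- MCAO 4, a 2.47-fold range, and the groups overlap. Cfap44 had 1.46, 1.63 and 1.16 RPKM in Cort+/+ CL, 1.28, 1.25 and 1.42 in Cort+/+ MCAO, 1.43, 1.76 and 1.75 in Cort-/- CL, and 1.51, 1.43, 1.38, 1.08 and 1.34 in Cort-/- MCAO. Its lowest value is in the same library as that of Dnah10, and its range was 1.63-fold.

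Some of the other members kept an almost even level. Cfap36 lay between 40.5 and 47.3 RPKM, a 1.17-fold range, with group means of 44.9 ± 2.57, 42.9 ± 3.15, 41.9 ± 1.50 and 42.7 ± 1.24 (SD, n = 3, 3, 3 and 5). Its r with the other members was -0.16. Cfap298, needed to assemble dynein arms before they enter the cilium, also had a 1.17-fold range, from 13.2 to 15.4 RPKM, and an r of 0.11. Rsph3a, a spoke stalk protein, had the lowest r, -0.31. The 17 members with an r under 0.2 had a median mean level of 3.0 RPKM and those with an r of at least 0.5 one of 0.572 RPKM, which differ in level and in the number of reads behind them. The median r was 0.51 in the 19 members with the X-box core and 0.50 in the 30 whose promoter window lacked it.

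**Figure D3:**
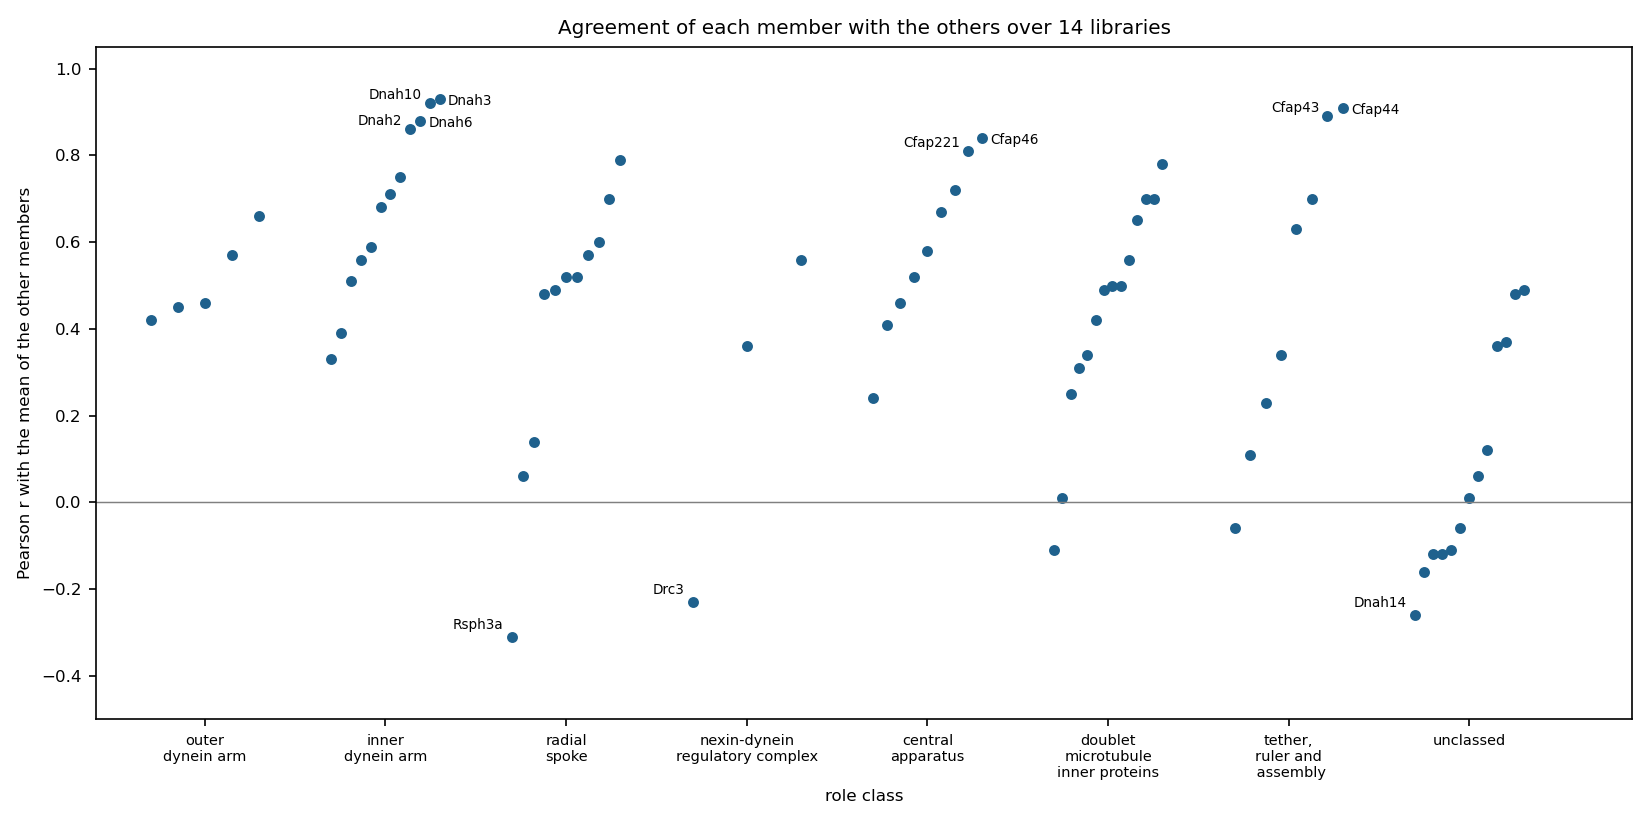
Each point is 1 of 75 motile cilia genes, placed by its part of the axoneme, and the y axis is its Pearson r with the mean of the other 74 genes over 14 libraries. Inner arm, central apparatus and tether genes reach above 0.8, and no gene without a class reaches 0.5.

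The response to ischemia was compared first in Cort+/+ mice. None of the 79 members passed the test (limma, Benjamini-Hochberg adjusted p under 0.05 over all genes), and 5 had an unadjusted p under 0.05. Of all 46102 genes 0.0108% passed, and 7.87% had an unadjusted p under 0.05. The median log2 fold change of the members was 0.03, with 45 of the 75 expressed members above 0 (60.0%) where 48.0% of expressed genes were. The sign of this median turned with the scaling and the other settings, which gave -0.04 to 0.06. The smallest adjusted p of a member was 0.496, for Cfap77 (chromosome 2, 28816961 to 28945091), a doublet inner protein. It had 0.162, 0.184 and 0.131 RPKM in CL and 0.286, 0.252 and 0.459 in MCAO, a log2 fold change of 0.71 with an SE of 0.27. These values rest on 10 to 29 reads per library. Cfap144 and Cfap95, also doublet inner proteins, came next, with 0.43 (SE 0.19, adjusted p = 0.595) and 0.41 (SE 0.18, adjusted p = 0.617). The groups did not overlap in 2 members that were higher in MCAO (Cfap77 and Cfap144, 2.67% of 75, against 7.87% of expressed genes) and in 2 that were lower (Cfap65 and Dnai1, against 5.95%).

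In Cort-/- mice no member passed either, and 1.72% of all genes did (792 genes, but 133 without Cort-/- CL 1, 86 with only the 2 groups compared in the fit and 0 with the replicate block). An unadjusted p under 0.05 was found in 7 members, all of them lower in MCAO. That is 8.86% of 79, where 6.05% of all genes were lower at that level, but all genes include many under 0.1 RPKM. Of the 24951 expressed genes, 4704 had such a p in either direction, against 7 of the 75 expressed members. The median log2 fold change was -0.12, and 60 of the 75 expressed members were below 0 (80.0%) against 55.1% of expressed genes. Many members move together from library to library, so 1 high or low library can set many signs at once. Counts of signs, for all members or for single classes and in every contrast, are therefore not counts of separate observations. Dnai1 (chromosome 4, 41569193 to 41638158), an intermediate chain of the outer arm, had the smallest adjusted p. It had 1.34, 2.17 and 1.72 RPKM in CL and 1.34, 1.36, 1.25, 1.26 and 1.44 in MCAO. Only the low CL library 1 overlapped with the MCAO values, and the log2 fold change was -0.34 (SE 0.12, adjusted p = 0.232). In Cort+/+ mice Dnai1 had 1.80, 1.73 and 1.78 RPKM in CL and 1.41, 1.42 and 1.67 in MCAO, with a log2 fold change of -0.23 (SE 0.14, adjusted p = 0.790).

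Drc1, which links neighbouring doublets, had 5.97, 5.97 and 6.11 RPKM in Cort-/- CL and 5.27, 5.09, 5.57, 5.26 and 5.56 in Cort-/- MCAO. Its groups did not overlap, and its log2 fold change of -0.17 (SE 0.06) had an adjusted p of 0.250. Cfap65, of the central apparatus, followed with -0.27 (SE 0.11, adjusted p = 0.285). In all, 6 members were lower in every MCAO library than in every CL library (Cfap61, Cfap73, Dnah2, Dnah6, Dnah7a and Drc1), 8.0% of 75 where 6.74% of expressed genes were, and 0 were higher, where 7.82% were. The 12 inner arm genes were all below 0 with a median of -0.21, as were the 9 of the central apparatus with a median of -0.19, and the radial spoke had 9 of 12 below 0 with a median of -0.08. The inner arm genes had 4 of 12 below 0 in Cort+/+ mice, with a median of 0.04. The Cort-/- CL libraries enter each of these values, and library 2 of that group had the highest member level of all.

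Genes that are known to respond to injury were read in the same fits. Of 10 proliferation genes, 1 passed in Cort+/+ mice (median log2 fold change 1.90, all 10 with an unadjusted p under 0.05) and 10 in Cort-/- mice (median 2.14). In Cort-/- mice Mki67 had 0.275 ± 0.105 RPKM in CL and 2.15 ± 0.623 RPKM in MCAO (SD, n = 3 and 5). For the members the intervals give the range of each gene's fold change on the log2(RPKM + 0.1) scale. This scale understates the fold change of low genes, and the intervals are not adjusted for the number of genes. The 95% interval of the log2 fold change lay within 1 of 0 for 73 of 75 members in Cort-/- and 72 in Cort+/+ mice, and within 0.5 for 40 and 41.

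**Figure D4:**
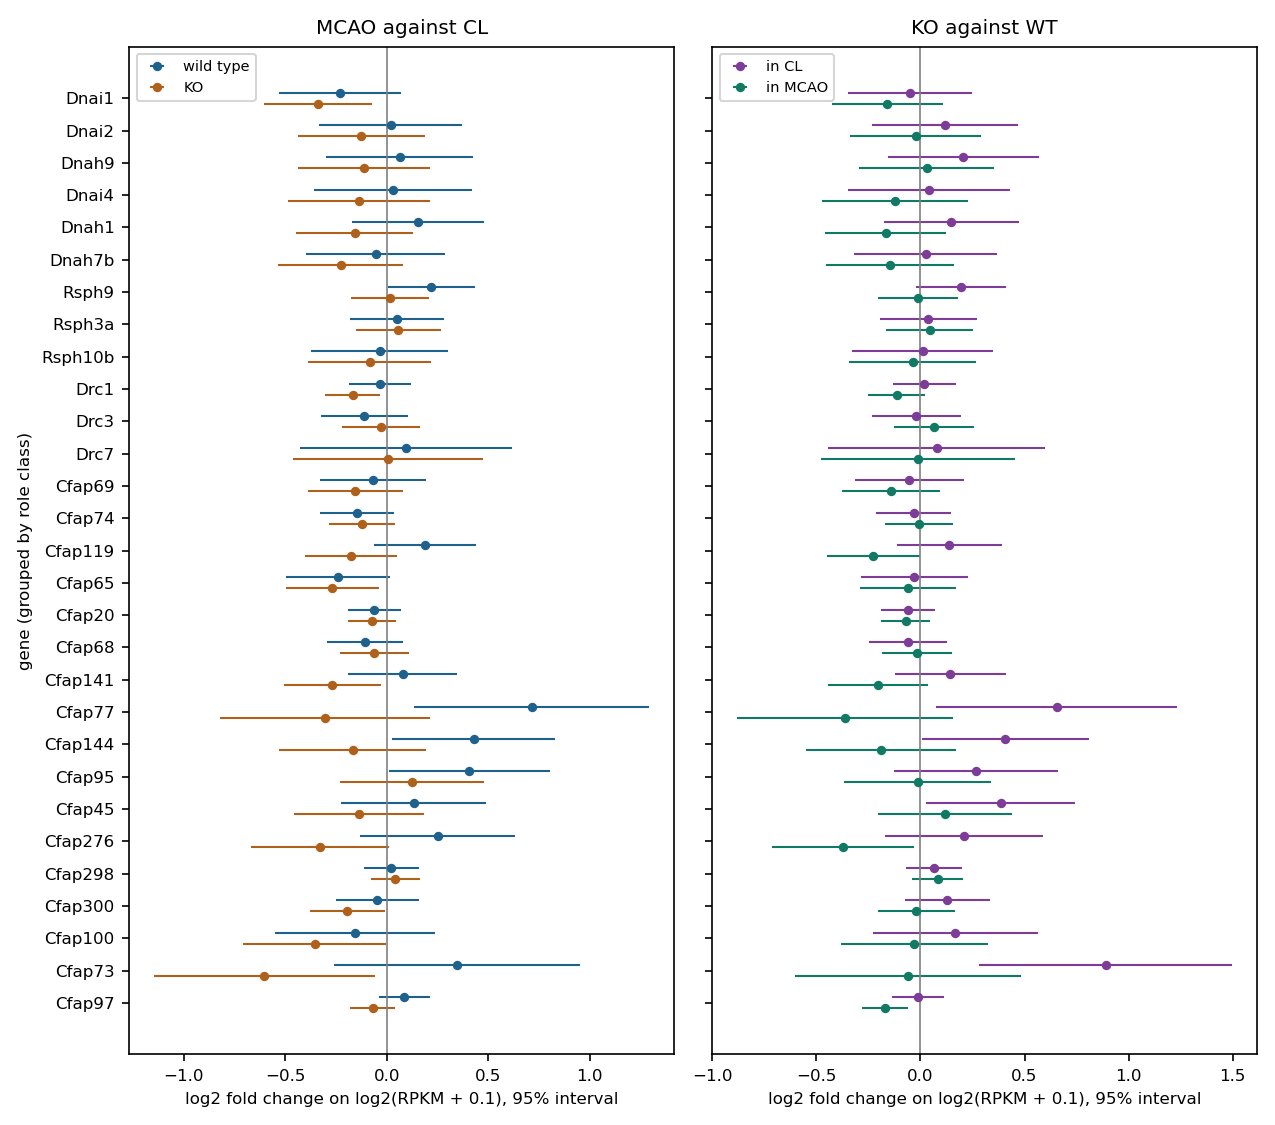
Log2 fold changes on log2(RPKM + 0.1) with 95% intervals for 29 motile cilia genes, in rows by part of the axoneme. The left panel gives MCAO against CL in wild type (Cort+/+) and KO (Cort-/-), the right panel KO against WT in CL and in MCAO. None passed the adjusted threshold, and the widest intervals are those of Cfap77 and Cfap73, genes of 7 to 29 reads per library.

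Between genotypes, the contralateral hemispheres were compared first. No member passed, against 0.0152% of all genes, and 4 had an unadjusted p under 0.05, all higher in Cort-/- (5.06% of 79 against 1.94% of all genes that were higher). Counted in either direction, such a p was found in 1802 of 46102 genes and in the same 4 of 79 members. The median log2 fold change was 0.12, and 52 of 75 were above 0 (69.3% against 50.9% of expressed genes). Cfap73, a partner of Cfap100 that regulates an inner arm, had 0.329, 0.440 and 0.204 RPKM in Cort+/+ CL and 0.504, 0.784 and 0.738 in Cort-/- CL. These groups did not overlap, and the log2 fold change was 0.89 (SE 0.28, adjusted p = 1.00), from 7 to 24 reads per library. Cfap77 followed with 0.65 (SE 0.27) and Cfap45, another doublet inner protein, with 0.38 (SE 0.17), each with an adjusted p of 1.00. In 4 members every Cort-/- CL library was above every Cort+/+ CL library (Cfap144, Cfap73, Cfap77 and Dnah7a, 5.33% of 75 against 4.04% of expressed genes), and in 0 below, against 2.94%.

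In the ischemic hemispheres no member passed, against 0.0174% of all genes, and 3 had an unadjusted p under 0.05, all lower in Cort-/- (3.80% against 2.28% of all genes that were lower). Counted in either direction, such a p was found in 1762 of 46102 genes and in the same 3 of 79 members, so the members were not set apart. The median log2 fold change was -0.02, and 49 of 75 were below 0 (65.3% against 53.5% of expressed genes). Cfap97 had 6.51, 6.63 and 7.12 RPKM in Cort+/+ and 5.99, 5.86, 6.23, 6.04 and 5.84 in Cort-/-. It was the single member whose groups did not overlap (1.33% of 75 against 1.60% of expressed genes lower in Cort-/- and 1.10% higher), with a log2 fold change of -0.17 (SE 0.05, adjusted p = 0.948). Cfap276 had -0.37 (SE 0.16) and Cfap119 -0.23 (SE 0.10), both with an adjusted p of 1.00. On the same log2(RPKM + 0.1) scale, the intervals of all 75 members lay within 1 of 0, and those of 53 within 0.5.

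Whether the response differed between Cort+/+ and Cort-/- mice was tested by the interaction term. No member passed, against 0.00217% of all genes, and 5 had an unadjusted p under 0.05 with a lower response in Cort-/- (6.33% against 1.82% of all genes) and 0 with a higher one. They were Cfap77 with -1.02 (SE 0.36), Cfap73 with -0.95 (SE 0.38), Cfap276 with -0.58 (SE 0.24), Cfap144 with -0.60 (SE 0.25) and Cfap119 with -0.36 (SE 0.16), each with an adjusted p of 1.00. Counted in either direction, an unadjusted p under 0.05 was found in 1527 of 46102 genes and in the same 5 of 79 members. The median over the 75 expressed members was -0.16, and 57 of them were below 0 (76.0% against 52.3% of expressed genes). Averaged over both genotypes, ischemia passed in 0 members and in 3.43% of all genes, with 4 and 14.9% at an unadjusted p under 0.05. Averaged over both hemispheres, the loss of Cort passed in 0 members and in 0.0672% of all genes, with 3 (3.80%) and 4.50% at an unadjusted p under 0.05. The contrasts share their libraries, so their medians are not separate pieces of evidence.

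The medians were also taken without Cort+/+ CL 3 and Cort-/- MCAO 4, the libraries lowest in member level. Without both, the median over the 75 expressed members was -0.03 in Cort+/+ and -0.09 in Cort-/- for MCAO against CL, and 0.05 for Cort-/- against Cort+/+ in CL. The interaction then had a median of -0.07. These libraries were picked after the data were seen, for low values of Oxt (described further on) that go with their low member level, so that a shift of the medians follows from the choice. The Cort+/+ median changed sign, from 0.03 to -0.03, and the other medians given here moved towards 0.

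The other genes of the ciliated cell were read next. Of 53 further motile cilia genes outside the symbol rule 0 passed in either genotype. Their median response was 0.07 in Cort+/+ and -0.07 in Cort-/- mice, and their level followed that of the members over the 14 libraries (r = 0.89, Spearman's rho = 0.75). Dnal1, an outer arm light chain, was the most abundant of them at 19.9 RPKM, with a log2 fold change of -0.23 in Cort-/- (SE 0.06, adjusted p = 0.106). The 15 ependymal markers had medians of 0.16 and -0.05 with 0 passing, and an r of 0.85 with the members. Some genes, such as Dynlrb2 and Enkur, are on both lists. Ccdc153, Tmem212 and Foxj1 had an r of 0.84, 0.81 and 0.55 as single genes. The r of Foxj1 was 0.37 without the 2 libraries farthest from the median member level, and 0.74 without the 2 lowest. The 13 transcription factors of multiciliogenesis also had 0 passing, with medians of -0.01 and -0.22. Foxj1, the master regulator, had 4.93 ± 0.369, 4.97 ± 0.218, 5.13 ± 0.895 and 4.89 ± 0.603 RPKM (SD, n = 3, 3, 3 and 5) in the order of groups used so far, and its log2 fold changes were 0.01 and -0.06. Rfx1 and Rfx3 had -0.23 (SE 0.08, adjusted p = 0.201) and -0.27 (SE 0.11, adjusted p = 0.293) in Cort-/- mice.

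Genes of the choroid plexus and of primary cilia had lower correlations with the members. The 15 choroid plexus markers had an r of 0.38 with the level of the members, medians of 0.10 and 0.13, and 0 passing. Their mean level ran from -0.55 in Cort+/+ CL 3 to 0.40 in Cort+/+ CL 2, and Cort-/- MCAO 4, among the lowest libraries for the members, was above 0 at 0.14. The 28 genes of intraflagellar transport and the primary cilium, which most brain cells carry, had an r of 0.24 and differed 1.08-fold from the lowest to the highest library. Neuron markers had an r of 0.01, microglia and macrophage markers -0.27, and endothelial markers -0.59. Without the 2 libraries farthest from the median member level (Cort-/- CL 2 and Cort+/+ CL 3) the r was 0.18 for choroid plexus, 0.56 for primary cilium and 0.53 for neuron genes, and -0.51 for microglia and -0.60 for astrocyte markers (-0.18 over all 14). Without the 2 lowest libraries instead (Cort+/+ CL 3 and Cort-/- MCAO 4) the r was 0.26 for choroid plexus, 0.12 for primary cilium and 0.18 for neuron genes. It was then -0.45 for microglia and -0.41 for astrocyte markers. These values therefore depend on a few libraries, and the endothelial value had a Spearman's rho of -0.30.

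Outside the cilia lists, the genes whose pattern was most like that of the members were sought among 14880 genes that averaged 1 RPKM or more, by Pearson r over the 14 libraries. Among the 10 highest were Mrgpre, Oxt, Magel2, Gbx2, Vwa5b1, Htr7, Mir3474, Gal and Zfp783, with r from 0.85 down to 0.82. Oxt, the oxytocin precursor, and Gal, the galanin precursor, are neuropeptides made in the hypothalamus, which borders the third ventricle, Magel2 is best known from the hypothalamus, and Gbx2 from the thalamus. Oxt had 22.8, 16.2 and 2.74 RPKM in Cort+/+ CL, 16.3, 15.1 and 28.3 in Cort+/+ MCAO, 17.7, 29.8 and 24.7 in Cort-/- CL, and 22.3, 18.3, 19.3, 2.10 and 8.99 in Cort-/- MCAO. The 2 libraries under 3 RPKM are those with the lowest level of the members, and the highest is Cort-/- CL 2 for both. Lists of 10 hypothalamic peptides and of thalamic markers were made after this was seen, and had an r of 0.90 and 0.46 with the level of the members. They hold Oxt, Gal and Gbx2, which were found by their likeness to the members, so these values restate that choice and are no separate support.

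**Figure D5:**
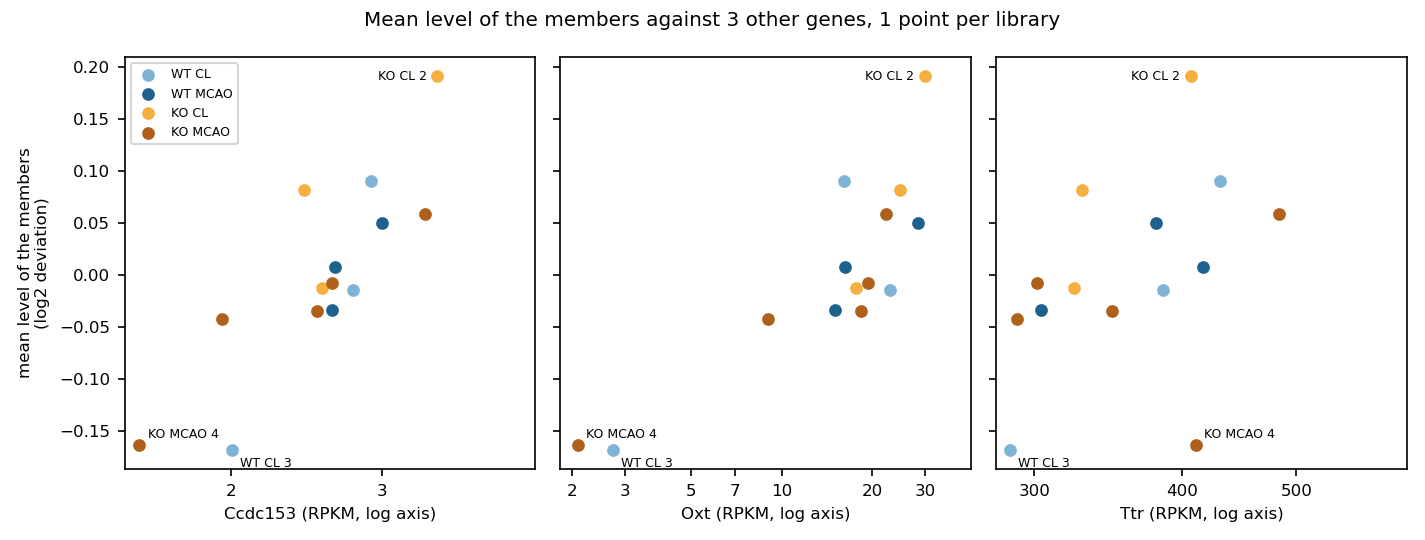
Mean level of the 75 motile cilia genes (y axis, log2 deviation) against the RPKM of Ccdc153 (ependymal), Oxt (hypothalamic) and Ttr (choroid plexus) on log x axes, 1 point per library coloured by group. Cort-/- MCAO 4 (KO MCAO 4) and Cort+/+ CL 3 (WT CL 3) are low for Ccdc153 and Oxt, whereas KO MCAO 4 is at 411 RPKM for Ttr.

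Some members followed the main difference between libraries over all genes. Cfap92 had 1.79 RPKM in Cort+/+ CL 1, 1.73 in Cort-/- CL 2 and 1.47 in Cort-/- MCAO 4, and 0.597 to 1.13 RPKM in the other libraries. These 3 libraries, with Cort+/+ MCAO 3 and Cort-/- MCAO 1, were on one side of the first principal component of the deviations from group means over genes of at least 1 RPKM, which held 27.9% of that variance. Of the 75 members, 8 had an r of at least 0.5 with that component, led by Cfap92 and Dnah14 at 0.82, and 17 one of -0.5 or less, led by Cfap69 and Dnai4 at -0.93 and -0.90. The share of all genes with such an r was not computed, so these counts do not set the members apart from other genes. The part of that difference between libraries in the values of the members was not tested.

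Some members share sequence, and their split of reads is uncertain. Of the 100-base windows of their transcripts, Dnah7a, Dnah7b and Dnah7c had 18.7%, 14.3% and 23.9% in common with the others of the trio, and Rsph3a and Rsph3b 45.8% and 36.3% with each other. The antisense transcript Dnah2os has 380 of its 1204 exon bases inside exons of Dnah2, and whether strand was used in the counting is not given in the sources used here. Its level was 0.137 RPKM on average, from 2 to 11 reads per library.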

How the data were processed

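RNA of 14 brain hemispheres was sequenced from mRNA libraries made with a stranded kit, 3 to 5 libraries per group of genotype and hemisphere. The authors processed the reads with the reanalyzerGSE pipeline on GRCm39 and GENCODE M28 and deposited RPKM values per gene for each library, without pooling. The aligner and the counting tool are not given in the sources used here, nor are the gene lengths and the library scaling. The whole reads behind the values were recovered by a search for gene lengths and library sizes, and 100% of 495656 values above 0 came out whole (tolerance 0.01 reads). The lengths were chosen to make the values whole, so this share is no check of the reads. Among genes with a single transcript that were read in most libraries, 94.3% matched their reference length. Reads give the depth behind a value. The methods call the replicates of a group independent, and which CL and MCAO libraries share a mouse is not given.

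Genes above 0 in at least 2 libraries (46102 of 46904) were fitted as log2(RPKM + 0.1) with limma (version 3.58.1, R 4.3.3) in 1 model of 4 groups with a variance trend, with Benjamini-Hochberg adjustment over all genes and 7 contrasts. A fold change on this scale understates that of low genes. The fit was tested on simulated data. Named genes are the 3 highest of each class, the 3 of largest moderated t in each of 5 contrasts, members past the threshold, and genes of marker lists and of closest pattern. The members and lists were chosen with earlier results of these data known. Members outside that rule, such as Cfap36, Cfap92, Dnah10 and Dnah14 and those named for agreement, low level, shared sequence or groups that do not overlap, were named after their values were seen. A gene that the rule selects is not reported here. Alternatives changed the pseudocount, filter, scaling, samples, weights, replicate block and test.

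Replicate numbers were not used to pair the hemispheres in the main fit. Same-numbered CL and MCAO libraries of a genotype had correlations of their deviations from -0.239 to 0.316, and differently numbered ones from -0.316 to 0.404. With so few libraries these values cannot show whether the same number means the same mouse. Gene positions come from GENCODE M39. Promoters come from RefSeq.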

Additional observations from a re-analysis of the deposited data

Results flagged for a closer look

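In Cort-/- MCAO, the group with 5 libraries, 1 library stood far from the others (by Dixon's test at the 95% level, which chance passes in about 1 of 20 groups) in 7 of 75 members (9.33%) and in 6.0% of the 24951 genes that averaged 0.1 RPKM or more. Library 4 was the one that stood apart in 5 of 75 members (6.67%) and in 2.08% of those genes. In library 4 Cfap45, Cfap46 and Dnah3 were low, at 1.2, 0.682 and 0.0948 RPKM, and Cfap68 and Cfap92 were high, at 9.69 and 1.47 RPKM. Cfap298 was low in library 5 at 13.2 RPKM, and Cfap47 was high in library 1 at 0.209 RPKM. The level of hypothalamic neuropeptides was also far from the others in library 4, at -1.09 on the log2 scale.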

How the results depend on the processing

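Over 27 alternatives no member passed in the main contrasts within and between genotypes or in the interaction, whether 1 library was left out or another setting was used. For ischemia over both genotypes 1 member passed with quantile normalization (Cfap65) and 1 without Cort-/- CL replicate 1 (Dnai1), so leaving out 1 library gave 0 to 1. The members' median log2 fold change with 1 library left out ran from -0.03 to 0.09 in Cort+/+, -0.14 to -0.08 in Cort-/-, 0.05 to 0.16 between genotypes in CL, -0.05 to 0.00 in MCAO and -0.19 to -0.10 for the interaction. Of the other settings, the hypothalamic peptide level as a covariate, chosen after seeing the data from genes found by their likeness to the members, moved the median over 79 members to 0.0084 in CL and 0.0083 for the interaction, a shift that the choice of the list makes likely. The sign of single named members changed in 199 of 3876 values, none of them past the threshold. With the replicate block the median was 0.03 in Cort+/+, -0.08 in Cort-/- and -0.07 for the interaction, no member passed, and 0 of all genes passed in either genotype against 5 and 792 without it. Within genotypes this block uses only the libraries with a same-numbered partner and leaves little from which to estimate the spread. Over every alternative, all genes passing ranged from 0 to 160 in Cort+/+ (160 without Cort+/+ MCAO replicate 4), 0 to 1367 in Cort-/- (133 without Cort-/- CL replicate 1, 1191 without Cort-/- MCAO replicate 3, 1367 with voom), 4 to 90 between genotypes in CL, 4 to 40 in MCAO, 0 to 16 for the interaction, 0 to 2180 for ischemia and 8 to 49 for Cort loss. The per-library levels moved by less than the spread between replicates with a 0.5 RPKM minimum and with median-ratio scaling. Depth limits Cfap73, Cfap77 and members of few reads.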
